A study of Homo sapiens with 12 samples.

Results

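The cytosolic ribosomal protein genes encode the proteins of the 60S and 40S subunits, here followed in human cardiomyocytes given endothelin-1, sacubitrilat or both. Members were the protein-coding genes whose symbol is RPL or RPS followed by a number, with at most an A, X or L ending and a further number, together with RPLP0, RPLP1, RPLP2 and RPSA. The rule used symbols alone and found 84 of the 78894 genes in the table, of which 52 carried RPL or RPLP symbols and 32 carried RPS symbols or were RPSA. It also takes in genes named for their likeness to a core ribosomal protein, such as RPL3L, RPL7L1, RPL10L, RPL22L1, RPL26L1, RPL39L and RPS27L. Of the 84, 83 passed the filter on low counts, and the muscle paralogue RPL3L did not.

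The cells were cardiomyocytes derived from WTC-mEGFP-ACTN2-cl85, 1 clonal line of human induced pluripotent stem cells in which 1 copy of ACTN2 carries a C-terminal mEGFP tag, so all 4 groups share that allele. Lactate enrichment preceded treatment, and each of the 4 groups held 3 cultures exposed for 48 h. The vehicle group received DMSO (the label gives 16 µM), the ET1 group 10 nM endothelin-1, a peptide that enlarges cardiomyocytes through Gq-coupled receptors, and the sacubitrilat group 16 µM sacubitrilat, the active neprilysin inhibitor. The combined group received both. RNA was captured by its poly(A) tail and sequenced as 3′-end-counting libraries, so 1 line was tested and p-values measure the spread between cultures of that line. Fewer ribosomal protein transcripts per cell and a larger amount of other RNA cannot be told apart in such bulk values.

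A ribosome holds 1 copy of nearly every one of these proteins, and cells make their mRNAs in similar amounts. Most of these mRNAs begin with a C followed by a run of C and T (U in RNA), the 5′ terminal oligopyrimidine tract, through which mTOR signalling and LARP1 govern their translation and stability. Growth of heart muscle cells is known to draw on new ribosomes. Adult heart and skeletal muscle also express RPL3L, which can take the place of RPL3 near the peptidyl transferase centre.

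Library totals split the groups in the same way as any joint effect of the treatments would. Totals ran from 1268308 to 1953122 counts over the 6 ET1 and sacubitrilat libraries, and from 80844 to 316932 over the 6 others, a 10.1-fold difference of mean totals. Depth and treatment cannot be told apart in any comparison of a vehicle or combined group with an ET1 or sacubitrilat group. Only ET1 against sacubitrilat, and combined against vehicle, set libraries of like total side by side. For the 6 ET1 and sacubitrilat libraries, a second line of the description gives the opposite compound. The title, library name and treatment set the group here, and with that line instead, every ET1 minus sacubitrilat difference would change its sign. All 13 cardiomyocyte markers (TNNT2, ACTN2, MYH6 and others) were detected in each group, and summed to 1.61% to 5.35% of the counts of a library. Counts of 5 endothelial and 5 pluripotent stem cell markers were near 0, with CDH5, VWF and KDR at 0 in both low-total groups.

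Start sites are shown for the members on which the results turn, because the tract is the feature these genes are known to share. Windows of 30 bases were read from the RefSeq promoter table (GRCh38.p14), 15 bases before the annotated start and 15 from it, which holds 67 of the 84 members. Capitals mark the longest run of C and T.
RPL39 (chrX:119791616-119791645, minus strand): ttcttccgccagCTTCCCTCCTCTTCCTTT
RPL41 (chr12:56116618-56116647, plus strand): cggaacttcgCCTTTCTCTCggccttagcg
RPS9 (chr19:54200843-54200872, plus strand): gtggcgcttccgcgCCTCTTTCTCagtgac
RPL24 (chr3:101686704-101686733, minus strand): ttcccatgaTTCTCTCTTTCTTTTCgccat
RPS28 (chr19:8321481-8321510, plus strand): tccccgaagcacgtgaCTCCTCTCCgccag
RPS26 (chr12:56041903-56041932, plus strand): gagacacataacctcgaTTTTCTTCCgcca
RPL3 (chr22:39319609-39319638, minus strand): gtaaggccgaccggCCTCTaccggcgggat
RPL22L1 (chr3:170870181-170870210, minus strand): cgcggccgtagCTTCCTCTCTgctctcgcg
RPL7L1 (chr6:42879601-42879630, plus strand): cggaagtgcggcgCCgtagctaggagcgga
RPL10L (chr14:46651767-46651796, minus strand): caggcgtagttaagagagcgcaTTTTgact
RPS27L (chr15:63157463-63157492, minus strand): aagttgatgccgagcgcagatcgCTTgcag
The first 8 windows hold a run across or just beside the start, and the windows of RPL7L1, RPL10L and RPS27L hold runs of 2, 4 and 3 bases.

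Over the 67 matched members, the longest run of C and T had a median of 10 bases, beside 4 bases over the 27305 genes of the RefSeq table. A run of at least 8 bases stood in 48 of the 67 windows (71.6%) and in 13.4% of all windows. An annotated first base C followed by at least 4 pyrimidines was found for 43 of 67 members (64.2%), for 4.0% of all genes of the table and for 6.1% of the 8322 tested genes with a window. The letters CTTTC, searched on both strands, stood on the sense strand in 40.3% of members and 4.2% of all windows, and on the reverse strand in 1.5% and 3.2%. A match or its absence concerns these letters in this window alone.

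The 84 genes took up a similar portion of each library. Together they held 7.74% ± 0.68 of the counts in vehicle libraries, 6.62% ± 0.12 in ET1, 7.96% ± 0.045 in sacubitrilat and 8.09% ± 0.18 in combined libraries (SD, n = 3 in each). The 3 ET1 libraries lay below the other 9, and the sacubitrilat libraries lay within the range of the vehicle libraries. The 52 large-subunit genes held 5.01% ± 0.44, 4.00% ± 0.068, 4.75% ± 0.018 and 5.49% ± 0.19 in the same order (SD, n = 3). The 32 small-subunit genes held 2.73% ± 0.24, 2.63% ± 0.052, 3.21% ± 0.028 and 2.60% ± 0.026 (SD, n = 3). The sacubitrilat group was thus the highest for small-subunit genes and the combined group for large-subunit genes.

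**Figure D1:**
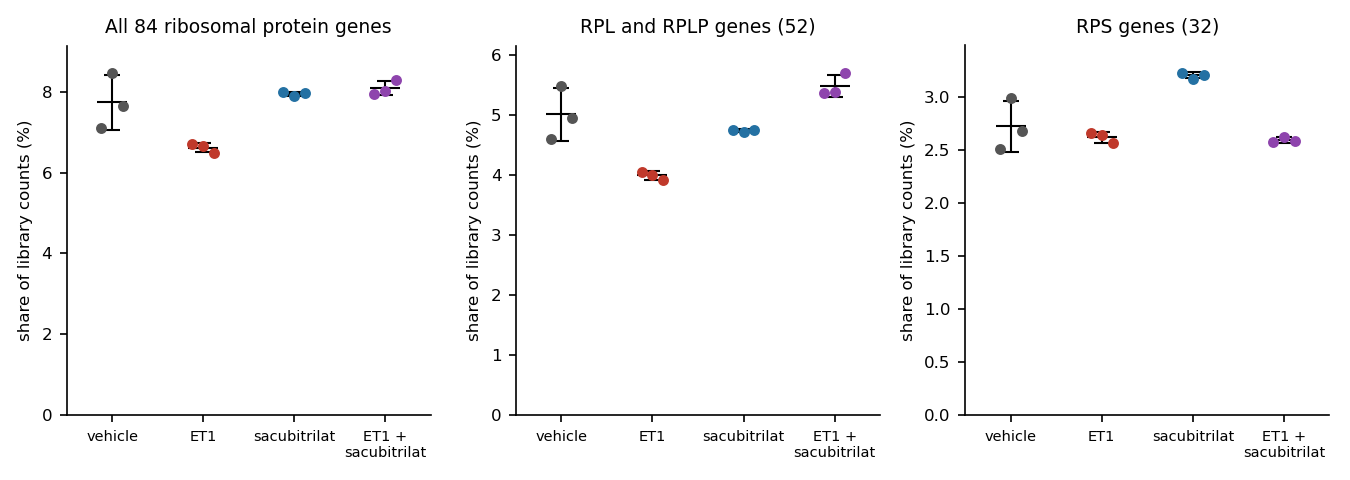
Share of library counts (%, linear axis from 0) held by all 84 ribosomal protein genes, the 52 RPL and RPLP genes and the 32 RPS genes, by group. Each point is 1 library, and bars give the mean and SD of 3. The ET1 mean of 6.62% is the lowest for all 84 genes, and the small-subunit genes are highest in sacubitrilat at 3.21%.

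A few genes accounted for much of the difference between subunits. The ratio of large- to small-subunit counts was 1.84 ± 0.011 in vehicle, 1.52 ± 0.0059 in ET1, 1.48 ± 0.0083 in sacubitrilat and 2.11 ± 0.079 in combined libraries (SD, n = 3). RPL39, RPL41, RPL7L1 and RPL10L alone made up 10.1% ± 2.96, 3.80% ± 0.029, 3.59% ± 0.083 and 16.9% ± 4.40 of the member counts in that order. These 4 were chosen after their values were seen. Without them the ratio was 1.55 ± 0.088, 1.43 ± 0.0052, 1.39 ± 0.0069 and 1.59 ± 0.18 (SD, n = 3), and the members' share of counts was 6.95%, 6.37%, 7.67% and 6.73%.

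Group means lay closer together for the members than for all tested genes, which were not matched to them for level. The ratio of the highest to the lowest group mean, in CPM (deposited counts scaled to equal library totals), had a median of 1.65 over the 83 members that passed the filter and 2.39 over the 11203 tested genes. It was under 1.5 for 37 of the 83 and at least 3 for 6 of them, against 14.8% and 35.3% of tested genes. In the low-total libraries 3 counts equal up to 37.1 CPM, which limits ratios of genes with few counts. Whether the ratio differs from that of other genes at the level of the members was not tested. RPS7, RPL32, RPL17 and RPL23 were among those with the smallest ratios, 1.13, 1.19, 1.20 and 1.21. RPS7, a 40S protein that can also bind MDM2, had 322, 514 and 465 CPM in vehicle, 396, 412 and 354 in ET1, 424, 432 and 459.7 in sacubitrilat, and 463, 436 and 299.5 in the combined group. The 4 groups overlapped for it. Among the largest ratios were those of RPL7L1 (8.56), RPL41 (5.21), RPL39 (5.05) and RPS9 (2.87).

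The groups ordered the members in a recurring way. Sacubitrilat had the highest group mean for 56 of 83 members (36.4% of all tested genes), and the combined group had the lowest for 43 (51.8%, beside 41% of tested genes). Both low-total groups lay below both high-total groups for 40 members (42.2% of tested genes), above them for 15 (29.1%), and the other 28 were mixed. All 6 low-total libraries lay above all 6 high-total ones for 11 members, beside 9.79% of tested genes, and below them for 23, beside 13.7%.

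**Figure D2:**
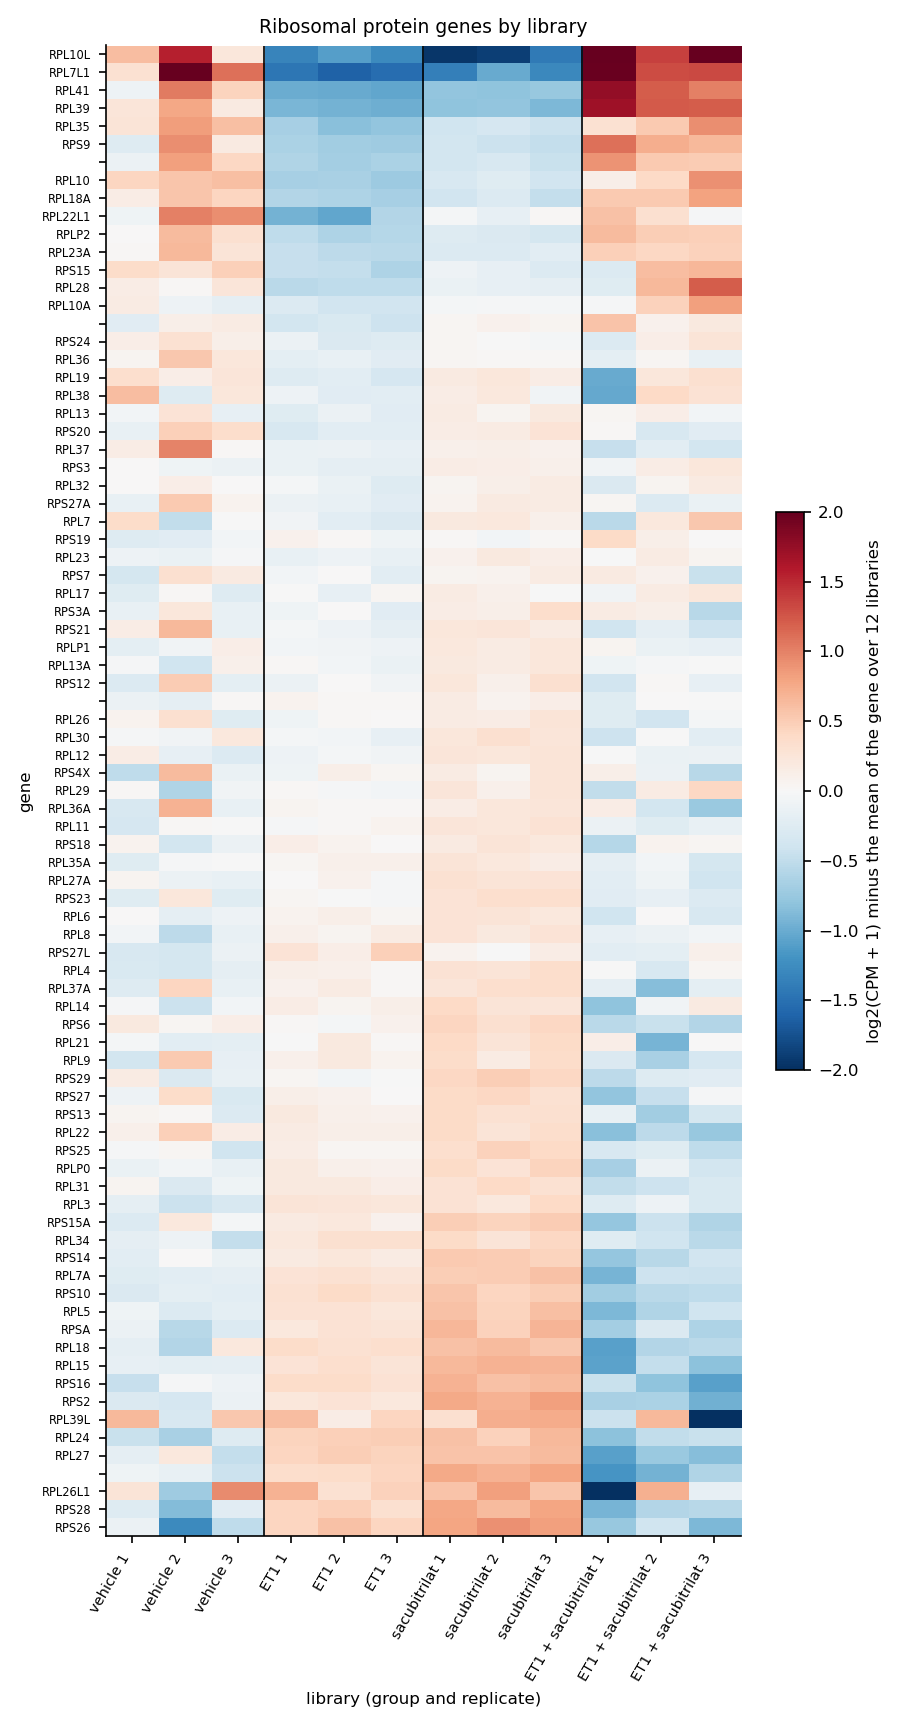
Level of 83 members (those with a mean of at least 1 CPM) in the 12 libraries, as log2(CPM + 1) minus the mean of the gene over the 12 libraries. Red is above and blue below that mean, and genes are ordered by the vehicle and combined mean minus the ET1 and sacubitrilat mean. Genes such as RPL7L1, RPL41 and RPL39 stand at one end, and RPS26 stands towards the other. Not every gene is labelled.

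Endothelin-1 against sacubitrilat compares libraries of like total, and here most ribosomal protein transcripts were a little lower with endothelin-1. In CPM, all 3 ET1 libraries lay below all 3 sacubitrilat libraries for 71 of 83 members, beside 25.6% of the tested genes. They lay above for 1 member, RPL10L, beside 10.2%, and that gene had under 5 CPM in each of these libraries. In the model of all 12 libraries (edgeR's quasi-likelihood test with Benjamini-Hochberg adjustment), 2 of 83 members were called, 1 higher with ET1 (6.44% of genes) and 1 lower (4.78%), beside 11.2% in either direction, and 4 had an unadjusted p below 0.05. That model shares 1 estimate of the spread with the low-total libraries, in which ribosomal protein counts were more scattered. A fit of these 6 libraries alone, added after that result was seen, called 30 of 82 members, 29 lower and 1 higher with ET1, where 17.6% of the 11935 genes were called, 7.60% lower and 10.0% higher. The median log2 fold change was -0.13 over the members, 74 of which were below 0, and -0.01 over all genes.

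The differences were small and spread over both subunits. Among small-subunit genes, 18 of 32 were lower and RPS27L was higher, and among large-subunit genes 11 of 50 were lower and none was higher. RPS2, a 40S protein near the mRNA entry channel, had 1930.4, 1986 and 1905 CPM in ET1 and 2789, 2687 and 2899.8 in sacubitrilat, and its log2 fold change was -0.40 ± 0.059 (SE, adjusted p = 2.6e-06 by edgeR, 6 libraries). RPL19, of the 60S subunit, had 795, 824 and 758 CPM against 1082, 1111 and 1064, a log2 fold change of -0.33 ± 0.062 (adjusted p = 0.00013). RPS29, a zinc-binding 40S protein, had 904, 849 and 883 CPM against 1181, 1245 and 1185. No ET1 library reached a sacubitrilat library for RPS2, RPL19 or RPS29. RPS20 had 427, 459 and 459 CPM against 593, 594 and 644, with a log2 fold change of -0.33 and groups that did not overlap. It belongs to the head of the 40S subunit.

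The count changed with the scaling. Where each library was scaled to its total alone, 62 of the 82 were lower and none higher, and where it was scaled to the summed member counts, 5 were lower and 5 higher. The first scaling, which is also that of the CPM values, moved the median of all genes by -0.13, and the second by 0.14. Under them the median over the members was -0.26 and 0.0066. The differences therefore describe ribosomal protein transcripts relative to other transcripts. The count was 13 without ET1 replicate 3, and 19 without either ET1 replicate 2 or sacubitrilat replicate 1. DESeq2 called 16 and thinning to 80000 counts left 5. Other lists moved in the same comparison, and their part in it was not tested. Of 13 cardiomyocyte markers, 11 were higher with ET1, with summed levels of 22320 to 23920 CPM against 16100 to 16365. Of 10 mitochondrially encoded genes, all 10 were higher with ET1, 18.4% to 18.7% of counts against 13.9% to 15.9%. Of 5 epicardial markers, 4 were lower with ET1, 40.1 to 55.6 CPM summed against 156 to 186. Of 5 smooth muscle markers, 4 were higher with ET1, 5947 to 6309 CPM summed against 4464 to 4540.1. Of 8 fibroblast markers, 3 were higher and 3 lower.

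**Figure D3:**
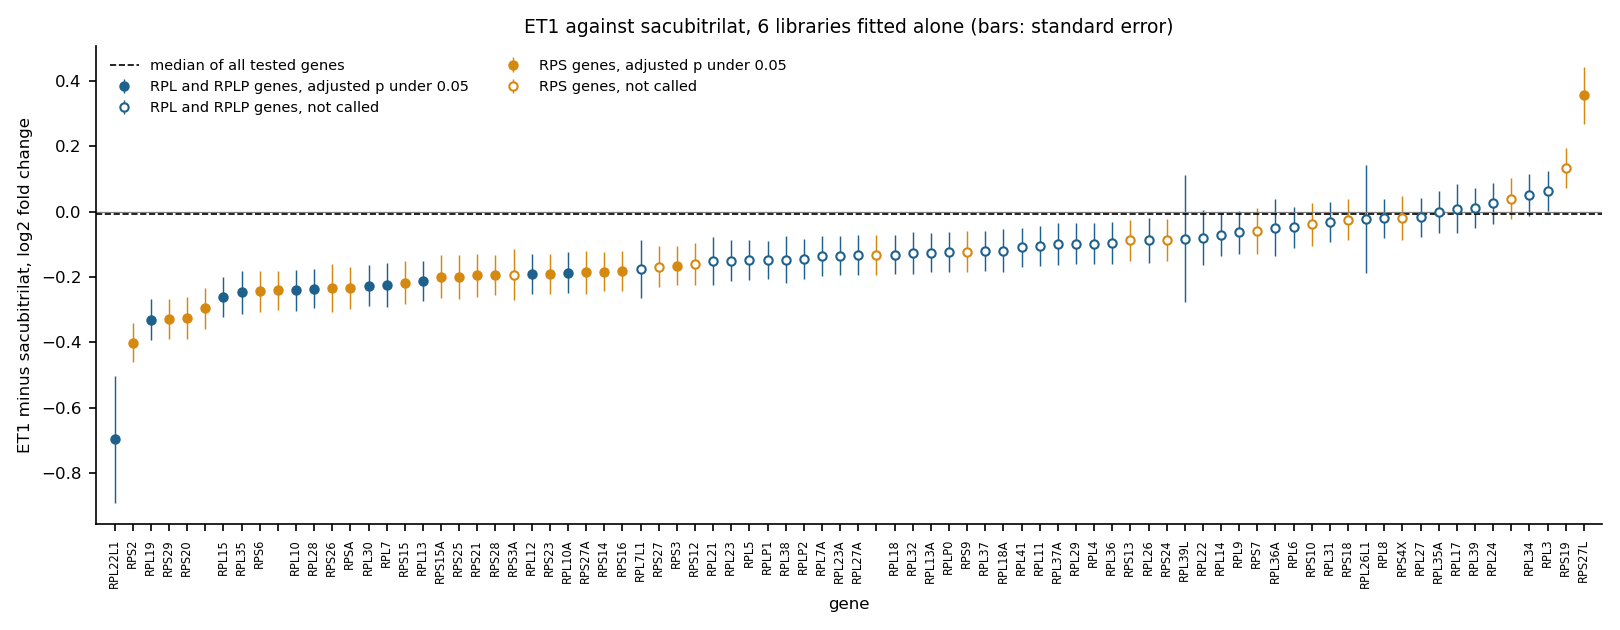
Log2 fold change, ET1 minus sacubitrilat, of 82 members in the fit of these 6 libraries alone, in order of size. Bars give the SE, filled points have an adjusted p under 0.05, and the dashed line marks the median of all tested genes. The 29 filled points below 0 come from both subunits, and RPS27L is the filled point above 0. Not every gene is labelled.

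Combined treatment against vehicle, the other comparison of like totals, called no member in edgeR's model of 12 libraries, where 0.179% of all genes were called, 0.0803% higher and 0.0982% lower. An unadjusted p below 0.05 was reached by 15 members, DESeq2 called 10 (1.39% of genes) and limma-voom 2 (0.0893%). The smallest p belonged to RPL39, a very short protein that lines the nascent peptide exit tunnel. RPL39 had 2651, 3849 and 2539 CPM in vehicle and 7260.1, 5272 and 5209 in the combined group, groups that did not overlap, and its log2 fold change was 1.03 ± 0.24 (SE, adjusted p = 0.054 by edgeR). RPL41, the shortest ribosomal protein, had 2142, 4752 and 3146 CPM against 7822, 5356 and 4657, and these overlapped. Its log2 fold change was 0.91 ± 0.26 (adjusted p = 0.13 by edgeR).

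Vehicle replicate 2 and combined replicate 1, the 2 libraries under 100000 counts, bore on these values. Leaving both out left 2 libraries in each of the 2 groups. In that fit 8 members were called, and the log2 fold change was 0.96 for RPL39 (adjusted p = 8.9e-07 by edgeR) and 0.90 for RPL41 (adjusted p = 6.1e-06 by edgeR). Without vehicle replicate 2 alone, 7 were called. The share of all genes called is not given for these 2 fits, so neither count is a result about the members. RPL39, RPL41, RPL7L1, RPS9 and RPLP2 were each highest in vehicle replicate 2 and combined replicate 1 within their group. RPL22, a 60S protein that also binds certain viral and cellular RNAs, had 134, 175 and 139 CPM in vehicle and 69.7, 87.1 and 73.5 in the combined group, without overlap. Its log2 fold change was -0.84 ± 0.31 (SE, adjusted p = 0.25 by edgeR).

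Endothelin-1 against vehicle, a comparison the series names as primary, called 26 of 83 members in the 12-library model, beside 23.2% of genes. Of these, 13 were higher with ET1 (11% of genes) and 13 lower (12.2%), with a median log2 fold change of 0.12 over the members and 0.10 over all genes. The large-subunit genes gave 6 higher and 10 lower of 51, and the small-subunit genes 7 higher and 3 lower of 32. RPL24, which bridges the 60S and 40S subunits, had 333, 291 and 381 CPM in vehicle and 620.5, 629 and 637 with ET1, a log2 fold change of 0.93 (adjusted p = 0.00039 by edgeR). RPS26, of the mRNA exit channel, had 166, 74.2 and 126 CPM against 244, 270.2 and 243, a log2 fold change of 0.89. Neither gene's groups overlapped. RPS28 (0.85), RPL27 (0.69) and RPS16 (0.64) were also higher on the log2 scale. With replicate number as a block, RPS16 had an adjusted p of 0.050 by edgeR and was no longer called.

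The members lower with ET1 than in vehicle included the genes of widest spread. RPL7L1, named for RPL7 and known as a factor of 60S assembly, had 713, 2738 and 1236 CPM in vehicle and 211, 187 and 199 with ET1, a log2 fold change of -2.72 ± 0.24 (SE, adjusted p = 1.3e-10 by edgeR). Its vehicle values ranged widely, yet all lay above the ET1 values. In counts, RPL7L1 had 225.8, 221.3 and 211 in vehicle and 196.8, 224.8 and 193.5 in combined libraries. Those counts varied far less than the totals of these libraries, which ran from 80844 to 316932. Among low-total libraries the CPM of RPL7L1 was higher where the total was lower, and why was not tested. Its contrasts with high-total groups cannot be told apart from depth. RPL41 changed by -1.40, RPL39 by -1.24, RPL35 by -1.22 and RPL10 by -1.12 on the log2 scale. RPL35 lies at the tunnel exit, and RPL10 joins late in 60S maturation. The count was 13 without vehicle replicate 3, and 14 after thinning to 80000 counts. The split of higher against lower was 3 against 24 with a mean of at least 50 counts, 14 against 5 with no filter, and 7 against 17 with vehicle and ET1 libraries alone.

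Combined treatment against ET1 alone, the other primary comparison, called 38 of 83, beside 34.4% of genes. Here 16 were higher in the combined group (16.6% of genes) and 22 lower (17.8%), and the median was -0.24 over the members and -0.23 over all genes. Large-subunit genes gave 12 higher and 11 lower, and small-subunit genes 4 higher and 11 lower. RPL7L1 had 2255, 1416 and 1434 CPM in the combined group, with a log2 fold change of 3.02 ± 0.24 (SE, adjusted p = 5.5e-12 by edgeR). RPL41 was higher by 2.31, RPL39 by 2.27, RPS9 by 1.45 and RPL35 by 1.34. The combined values of RPL41 and RPL39 stood above every library of the single-compound groups.

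Among members lower in the combined group than with ET1, RPL27 changed by -1.37, RPS16 by -1.17, RPS26 by -1.16, RPS28 by -1.11 and RPL18 by -1.07 on the log2 scale. RPL27, a 60S protein, had 803, 835 and 810.4 CPM with ET1 against 279, 355 and 329.8 in the combined group. Each combined library lay below each ET1 library. The split was 14 against 42 when libraries were scaled to the summed member counts, which moved the median of all genes by -0.25. It was 6 against 42 with no filter and 28 against 12 with a mean of at least 50 counts.

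Sacubitrilat against vehicle called 27 of 83, beside 19.9% of genes, 16 higher (8.68% of genes) and 11 lower (11.2%). The median was 0.21 over the members and 0.14 over all genes. RPS26 (1.13), RPS28 (1.05), RPS2 (0.96), RPL24 (0.91) and RPS16 (0.83) were higher on the log2 scale. RPL7L1 (-2.52), RPL41 (-1.29), RPL39 (-1.24), RPL35 (-0.96) and RPL10 (-0.87) were lower. The count was 15 without vehicle replicate 3, and the split was 9 against 15 with a mean of at least 50 counts and 20 against 4 with no filter. DESeq2 called 41 here, and 41 for ET1 against vehicle. The share of all genes that DESeq2 called is not given for either, so these counts describe the change of tool alone.

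Combined treatment against sacubitrilat called 41 of 83, beside 35.0% of genes, 14 higher (17.2%) and 27 lower (17.8%). The median was -0.33 over the members and -0.25 over all genes. RPL7L1 was higher by 2.82, RPL39 by 2.27, RPL41 by 2.20 and RPS9 by 1.32. RPS2 changed by -1.43, RPS26 by -1.41, RPL27 by -1.40 and RPS16 by -1.36 on the log2 scale. RPS2 had 1057, 1066 and 850.3 CPM in the combined group, below all its sacubitrilat values given above. With a mean of at least 50 counts the split was 22 higher against 16 lower, and with no filter 5 against 47.

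The fold changes of 2 comparisons that share no library ran opposite to each other over the members. Between combined minus ET1 and sacubitrilat minus vehicle, r was -0.95 over 83 members and -0.69 over all tested genes. The rank correlations were -0.88 and -0.73. The 83 include RPL10L, which had the most extreme values and passed the low-count filter only through low-total libraries. Of the 16 members higher in combined than ET1, 11 (68.8%) were among the 11 lower in sacubitrilat than vehicle (100%). Of the 22 lower, 15 (68.2%) were among the 16 higher in sacubitrilat than vehicle (93.8%). Between ET1 minus vehicle and combined minus sacubitrilat, r was -0.90 over the members and -0.63 over all genes. Rank correlations for this pair were -0.805 and -0.661. Each of these comparisons sets a low-total against a high-total group, in opposite order within each pair, so the points share the split in depth. Genes are not independent replicates, and no p is given. Between combined minus vehicle and ET1 minus sacubitrilat, each of like totals, r was 0.41 over the members and 0.11 over all genes, and the rank correlation was 0.165 and 0.114.

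**Figure D4:**
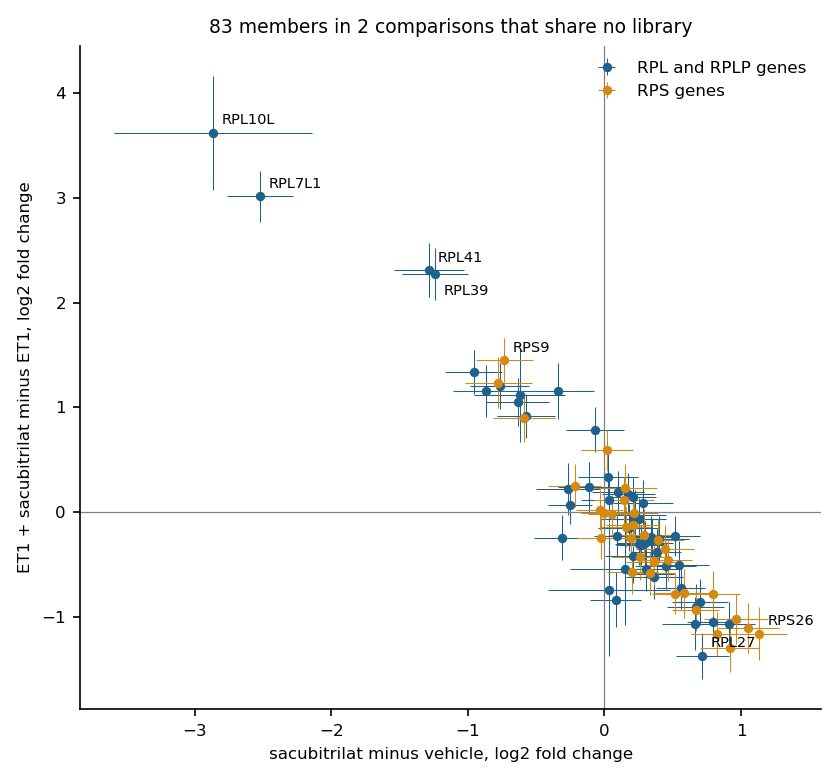
Log2 fold changes of 83 members for sacubitrilat minus vehicle (x axis) and for combined minus ET1 (y axis), which share no library. Points are genes and bars SE. The points fall along a descending line, from RPL10L and RPL7L1 at upper left to RPS26 and RPL27 at lower right. RPL10L passed the low-count filter only through low-total libraries.

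The difference between the effect of ET1 with and without sacubitrilat was called for 45 of 83 members, beside 46.1% of genes, 15 positive (20.1%) and 30 negative (26.0%). The median was -0.44 over the members and -0.43 over all genes. This contrast sums the 2 low-total groups and subtracts the 2 high-total ones, so it cannot be told apart from depth. Among members with a mean of at least 50 CPM, RPL7L1 had the largest value, 5.54 ± 0.34 (SE, log2 scale), followed by RPL41 (3.60) and RPL39 (3.51), and RPS26 had the lowest (-2.30). A test of any difference among the 4 groups called 40 of 83, beside 44.6% of genes.

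Markers of some other cells moved along the same split and others did not, and their part in these values was not tested. Summed over 7 endoderm and liver markers, levels were 197 to 680.3 CPM in vehicle and 445 to 584 in combined libraries, against 54.4 to 83.5 in ET1 and 48.5 to 59.4 in sacubitrilat. Of the 6 tested, all 6 were lower with ET1 (12.2% of genes) and with sacubitrilat (11.2%) than in vehicle. Only 4 of the 7 passed the low-count filter in the fit of 6 libraries. The others of the 6 passed only through low-total libraries, where their CPM was high. For them the calls are no support for a difference. Summed over 8 fibroblast markers, levels were 1732 to 4959 CPM in vehicle and 1936 to 4437 in combined libraries, against 6729 to 7592 in ET1 and 7013 to 7326 in sacubitrilat. Sums of 5 smooth muscle markers did not follow the split. They were 5478 to 6584 CPM in vehicle, 5947 to 6309 in ET1, 4464 to 4540 in sacubitrilat and 6978 to 8879 in combined. Nor did sums of 5 epicardial markers, at 99.0 to 120, 40.1 to 55.6, 156 to 186 and 31.5 to 91.7 CPM in that order. Counts of the 1079 ribosomal protein pseudogenes with any count equalled 14.2% ± 2.35 of the member counts in vehicle, 9.03% ± 0.064 in ET1, 9.05% ± 0.22 in sacubitrilat and 16.9% ± 0.87 in combined libraries (SD, n = 3). Ribosomal protein genes have many near-identical pseudogene copies, so reads of a member can be split with them. Of 1008 member values, 31% were whole numbers (within 1e-09), beside 78.9% of all values above 0.

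RPS9 and RPS26 show both patterns in single libraries. RPS9, of the 40S body, had 820.4, 1855 and 1108 CPM in vehicle, 629, 603 and 599.9 in ET1, 754, 722 and 700.2 in sacubitrilat, and 2097, 1622 and 1530.2 in the combined group. Its low-total libraries all lay above its high-total libraries. RPS26 had 311, 339 and 320.3 CPM in sacubitrilat and 106, 137 and 96.3 in the combined group, and its low-total libraries all lay below. RPS28 also fell into this second kind, with 720.2, 475 and 737 CPM in vehicle against 1469.6, 1342 and 1485 in sacubitrilat. Members with unlike roles and subunits thus stood on each side.

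RPL3, the core 60S protein beside which RPL3L is read, lies at chr22:39312882-39320389 on the minus strand (GRCh38). It had 1084, 909 and 986 CPM in vehicle, 1474, 1455 and 1433 in ET1, 1509.6, 1418 and 1618 in sacubitrilat, and 1025, 1142 and 995 in the combined group. The 6 low-total libraries all lay below the 6 high-total ones, and the group means were 993 ± 87.5, 1454 ± 20.3, 1515 ± 100.2 and 1054 ± 77.4 (SD, n = 3). RPL3 was higher with ET1 than in vehicle by 0.60 ± 0.22 on the log2 scale (SE, adjusted p = 0.042 by edgeR). That call was lost under 14 of the alternatives, among them the replicate block (adjusted p = 0.081 by edgeR). The other contrasts with a low-total group gave 0.55 for sacubitrilat minus vehicle (adjusted p = 0.072 by edgeR) and -0.50 for combined minus ET1 (adjusted p = 0.075 by edgeR). Combined minus sacubitrilat gave -0.45 (adjusted p = 0.11 by edgeR). In comparisons of like totals RPL3 gave 0.10 for combined minus vehicle (adjusted p = 0.92 by edgeR) and 0.06 ± 0.061 for ET1 minus sacubitrilat in 6 libraries (adjusted p = 0.55 by edgeR).

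RPL3L was close to undetected. The gene lies at chr16:1943974-1957606 on the minus strand (GRCh38), with 10 exons in its annotated transcript of 2182 bases. Sacubitrilat replicate 1 held 2 counts (1.47 CPM) and the other 11 libraries held 0. Over the 3 libraries of a group, a count of 0 allows up to 3 counts, which is 5.28 CPM in vehicle, 0.603 in ET1 and 7.87 in combined. Against RPL3 counts of 585, 7234 and 405 these limits are 0.513%, 0.0415% and 0.740% of RPL3. The same 3 counts would be 0.655 CPM, or 0.0428% of 7013 RPL3 counts, in sacubitrilat. No switch between the 2 genes was detectable at this depth, and the limits cover counting error only.

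**Figure D5:**
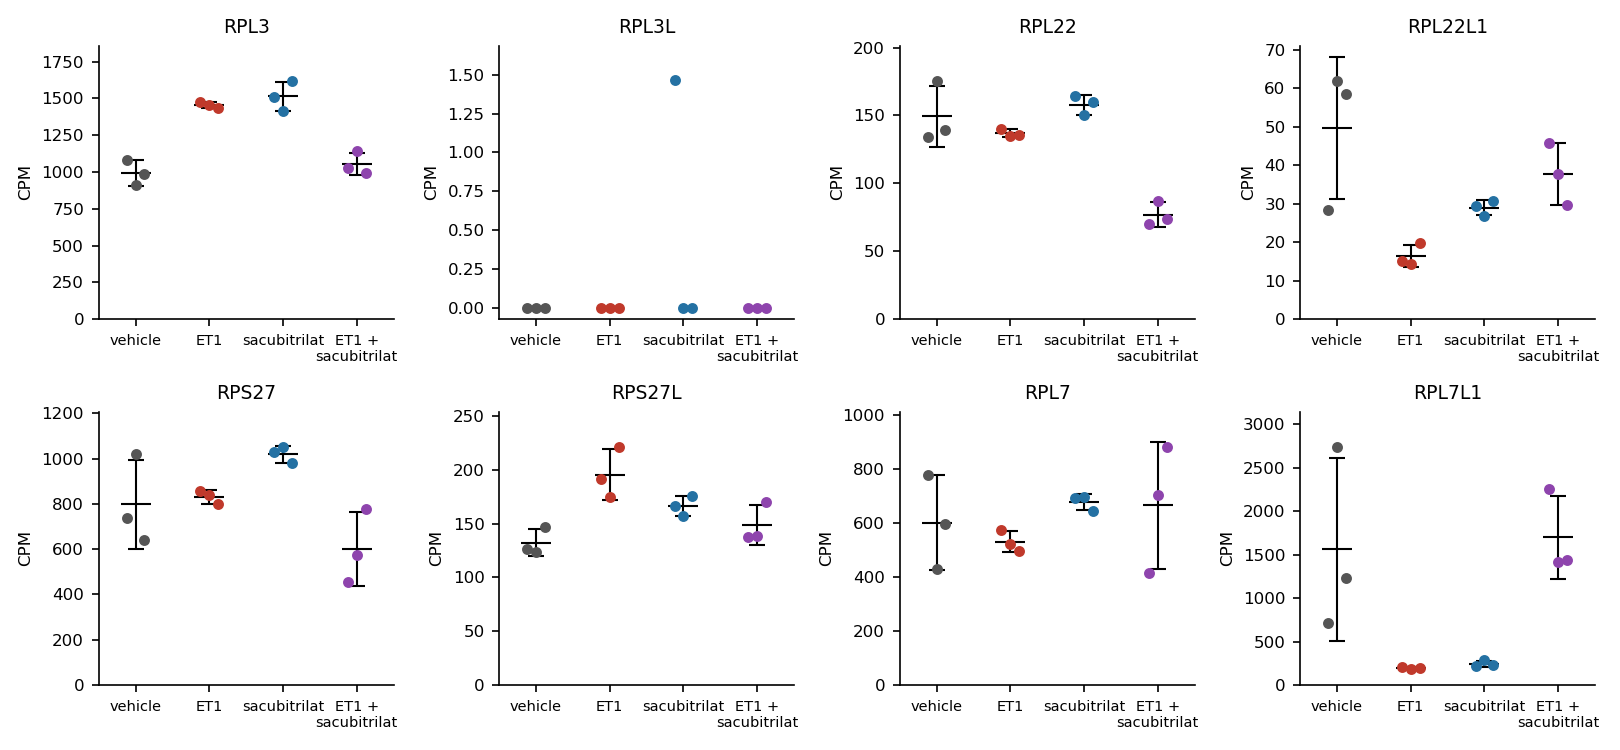
CPM (linear axes) of RPL3 and RPL3L, RPL22 and RPL22L1, RPS27 and RPS27L, and RPL7 and RPL7L1, by group. Points are libraries and bars the mean and SD of 3, except in the RPL3L panel, which has points only. RPL3L shows 1 library above 0, at 1.47 CPM, and RPL7L1 is high in all vehicle and combined libraries.

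The other paralogues divided their pairs unevenly. Shares are of the summed 3′-end counts of the pair, not divided by length. RPL22L1, which can replace RPL22, had 28.4, 61.8 and 58.6 CPM in vehicle, 15.2, 14.2 and 19.8 in ET1, 29.4, 26.8 and 30.7 in sacubitrilat, and 45.8, 37.8 and 29.6 in the combined group. It held 23.0% of the pair's counts in vehicle, 10.7% in ET1, 15.6% in sacubitrilat and 31.9% in combined. The vehicle and combined values rest on few RPL22L1 counts, 9, 5 and 10 in vehicle and 4, 6 and 4 in combined. The ET1 libraries lay below all other 9 libraries for RPL22L1. Against sacubitrilat its log2 fold change was -0.70 ± 0.20 (SE, adjusted p = 0.017 by edgeR, 12 libraries) and -0.70 ± 0.19 in 6 libraries (adjusted p = 0.0089 by edgeR). The call in 12 libraries was lost under 8 of the alternatives, DESeq2 and limma-voom among them, and the call in 6 libraries under DESeq2. Against vehicle it was -1.32 ± 0.36 (adjusted p = 0.0063 by edgeR). That call was lost under 3 of the alternatives, no filter and leaving out vehicle replicate 3 among them. Combined minus ET1 gave 1.11 ± 0.45 (adjusted p = 0.05 by edgeR), a call lost under 13 of the alternatives, among them RLE scaling and the replicate block (adjusted p = 0.061 by edgeR).

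RPS27L, the paralogue of RPS27 known as a target of p53, was the 1 member higher with ET1 than with sacubitrilat. It had 191, 174 and 221 CPM in ET1, 167, 157 and 176 in sacubitrilat, 126, 124 and 146 in vehicle, and 137, 139 and 170.4 in the combined group. The ET1 and sacubitrilat libraries overlapped, by 1 library. The log2 fold change was 0.35 ± 0.11 (SE, adjusted p = 0.033 by edgeR, 12 libraries), with an adjusted p of 0.11 under the replicate block, and 0.36 ± 0.086 in 6 libraries (adjusted p = 0.0024 by edgeR). Without ET1 replicate 3 the value in 6 libraries was 0.26 (adjusted p = 0.061 by edgeR). RPS27L held 15.0%, 19.1%, 14.2% and 19.5% of its pair's counts in vehicle, ET1, sacubitrilat and combined.

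RPL7L1 took 63.2% of the counts of its pair with RPL7 in vehicle and 69.8% in combined, against 27.3% in ET1 and 26.6% in sacubitrilat. Its annotated transcript is 4476 bases long with an internal run of 19 A. RPL14 also has a run of 19 and RPS27L one of 24, and both had lower means in vehicle and combined than in the single-compound groups. Over 83 members, run length gave r of 0.05 (rank correlation -0.15) with the difference of ET1 effects. A link of such runs to the values was not tested. RPL10L, a single-exon copy of RPL10 known from testis, had 15.8, 30.9 and 11.7 CPM in vehicle, 3.37, 4.07 and 3.49 in ET1, 1.84, 1.97 and 3.07 in sacubitrilat, and 82.1, 27.3 and 50.6 in the combined group. The vehicle values of RPL10L rest on 5, 2.5 and 2 counts, and its combined values on 7.17, 4.33 and 6.83. RPL10L was lower with ET1 than in vehicle by -2.06 ± 0.66 (SE, log2 scale, adjusted p = 0.021 by edgeR) and higher in combined than ET1 by 3.62 ± 0.55 (adjusted p = 2.2e-06 by edgeR). The first of these calls was lost under 5 of the alternatives, among them leaving out vehicle replicate 1, vehicle replicate 2 or ET1 replicate 1. RPL10L passed the low-count filter only through low-total libraries, where its CPM was high, and it did not pass in the fit of 6 libraries. Neither call is therefore support for a difference, though both stay in the counts of called members above. RPL39L, also known from testis, held 0.229% to 1.94% of its pair's counts, and RPL26L1 held 7.05% to 8.62%. RPL39L and RPL26L1 each had 0 counts in 1 combined library.

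The acidic stalk recruits elongation factors to the 60S subunit through RPLP0, which anchors RPLP1 and RPLP2. RPLP2 had 2309.6, 3556 and 2866 CPM in vehicle, 1605, 1489.7 and 1542 in ET1, 1922, 1874 and 1797 in sacubitrilat, and 3546, 3231 and 3190.1 in the combined group. Its low-total libraries all lay above its high-total ones, with log2 fold changes of -0.79 for ET1 minus vehicle and 1.05 for combined minus ET1. RPLP2 was also called for sacubitrilat minus vehicle (-0.64), with an adjusted p of 0.084 by edgeR under the replicate block. RPLP0 had 1165, 1233 and 1149.6 CPM in vehicle, 1454, 1360.3 and 1354 in ET1, 1661, 1541 and 1743 in sacubitrilat, and 804, 1169 and 991 in the combined group. It was lower in combined than sacubitrilat by -0.64 ± 0.23 (SE, log2 scale, adjusted p = 0.025 by edgeR), and the adjusted p was 0.052 with the replicate block. RPLP1 had 2327, 2523 and 2930.1 CPM in vehicle and 2773, 2418 and 2371 in the combined group, which overlapped the ET1 values. The 3 stalk genes therefore did not share 1 order of groups.

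RPSA, a 40S protein that doubles as the laminin receptor, had 451, 334 and 405 CPM in vehicle, 565, 600.1 and 586 in ET1, 780.1, 674 and 784 in sacubitrilat, and 305, 400.4 and 319 in the combined group. All low-total libraries lay below all high-total ones. Its log2 fold changes were 0.56 for ET1 minus vehicle (adjusted p = 0.033 by edgeR, and 0.077 with the replicate block) and 0.80 for sacubitrilat minus vehicle. The first of these calls was lost under 13 of the alternatives, among them leaving out any ET1 library. Combined minus ET1 gave -0.78 and combined minus sacubitrilat -1.02.

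Members were also read by the kind of start. In 6 libraries, ET1 minus sacubitrilat had a median of -0.13 over 43 members whose first base C is followed by at least 4 pyrimidines, with 12 lower and none higher. Over 23 members with another start the median was also -0.13, with 10 lower and 1 higher. For ET1 minus vehicle the medians were 0.16 over 43 and 0.145 over 24 members. Combined minus sacubitrilat had medians of -0.36 and -0.24, with 17 of 43 and 6 of 24 lower, and combined minus vehicle had medians of -0.14 and -0.02. The differences between the kinds of start were not tested. Among transcript features, the number of exons gave r of 0.35 with ET1 minus vehicle and -0.31 with combined minus ET1 over 83 members, against 0.02 and 0.01 over 9729 protein-coding genes. The rank correlations over the members were 0.31 and -0.15. Transcript length gave r between -0.05 and 0.05 in all 6 pairwise comparisons over the members, and rank correlations between -0.077 and 0.142. These are descriptions across genes that share libraries and depth.

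Genes of the same pathway were read from lists of translation and ribosome assembly genes. Of 20 elongation and initiation factor genes, whose mRNAs are also known for pyrimidine tracts, 7 were higher and 1 lower with ET1 than in vehicle, and 1 was higher and 8 lower in combined than ET1. Over all genes, 11% were higher and 12.2% lower in the first comparison, and 16.6% and 17.8% in the second. EEF2, which moves the ribosome along the mRNA, had a log2 fold change of -0.96 for combined minus ET1. Of 12 snoRNA host genes, 3 were higher with ET1 than in vehicle, and 4 were lower in combined than ET1, GAS5 among them (-0.83). Of 34 tested assembly factor genes, 1 was higher and 2 lower with ET1 than in vehicle, and 5 were higher and 2 lower in combined than ET1. In ET1 against sacubitrilat with 6 libraries, where 10.0% of genes were higher and 7.60% lower, 3 of the 20 factor genes were higher and 4 lower. There, 7 of 35 assembly genes were lower with ET1 and none was higher, with a median of -0.15. NCL (nucleolin, -0.42) and FBL (fibrillarin, which methylates rRNA, -0.45) were among the 7. Of 14 mTOR and LARP genes, 2 were lower in that comparison and none higher.

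RACK1, a 40S protein whose symbol the rule does not cover, had 2272, 5349.8 and 3252 CPM in vehicle, 1424, 1339.8 and 1355 in ET1, 1640.4, 1463 and 1618 in sacubitrilat, and 4285, 3199 and 2818 in the combined group. Its low-total libraries all lay above its high-total ones, and its log2 fold change was -1.24 for ET1 minus vehicle and 1.26 for combined minus ET1.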

How the data were processed

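Groups, comparisons and lists follow the submitters' labels. The members and gene lists were chosen with earlier results of these data known. Per the submitters' processing notes, trimming used fastp 0.24.0, counting used featureCounts and the build was GRCh38. Not given in the sources used here were the aligner, annotation release, identifier handling, strand setting and multi-mapping setting. The authors deposited estimated counts, often fractional, and deposited CPM that matched those counts divided by library totals (largest difference 2.91e-11). Counts were rounded for the tests, and 92 spike-in features with 0 counts were left out.

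All 12 libraries entered 1 model with group as its term (edgeR 4.0.16 quasi-likelihood test in R 4.3.3, TMM scaling, filterByExpr), which kept 11203 genes. Adjusted p is Benjamini-Hochberg over all of them, called when under 0.05, and log2 fold changes carry the SE of the fit. The fit of 6 libraries was added later and kept 11935 genes. The test was tested on simulated counts. Start windows came from RefSeq GRCh38.p14, and transcripts and coordinates from GENCODE on GRCh38.

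Named members were RPL3, RPL3L, the other paralogues, the stalk genes and RPSA, and the 5 with the highest mean. They further included up to 6 called members in each direction per comparison (mean of at least 50 CPM) and the 5 widest and 5 narrowest ratios of group means. From each other list up to 4 called genes by smallest p could be named. Some members are not reported here. The labels give the replicate number as a batch, and deviations of same-numbered libraries from their group means had r from -0.146 to 0.0396 over 18 pairs. The model has no block, and values with a replicate block are given where they change a call. Alternatives were RLE, member-sum and total scaling, DESeq2 1.42.0, limma-voom (limma 3.58.1), no low-count filter, a mean of at least 50 counts, the block, the compared groups alone, each library left out, thinning to 80000 counts, no libraries under 100000 counts, mitochondrial genes left out and exchanged labels. Pseudogene counts added to their parent gene and total scaling were tried after seeing the data. Plots used matplotlib 3.10.9 (Python 3.11.15).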

Additional observations from a re-analysis of the deposited data

Results flagged for a closer look

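For 12 named members the effect of endothelin-1 with sacubitrilat present differed from its effect without it, by the test of that difference (edgeR's quasi-likelihood test, adjusted p under 0.05). On the log2 scale the difference was 5.54 for RPL7L1, 3.60 for RPL41, 3.51 for RPL39, 2.29 for RPL35, 2.19 for RPS9 and 2.03 for RPL10. It was -2.30 for RPS26, -2.16 for RPS28, -2.09 for RPL27, -1.99 for RPS16, -1.98 for RPS2 and -1.05 for RPL3. RPL3 was no longer called with a mean of at least 50 counts or after thinning to 80000 counts. The contrast sets the 6 low-total libraries against the 6 high-total ones, and depth and treatment cannot be told apart.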

How the results depend on the processing

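Leaving out single libraries gave ranges of 13 to 30 members called for ET1 minus vehicle, 33 to 54 for combined minus ET1, 15 to 36 for sacubitrilat minus vehicle and 34 to 58 for combined minus sacubitrilat. The ranges were 0 to 7 for combined minus vehicle, 0 to 3 for ET1 minus sacubitrilat and 13 to 27 for that comparison in 6 libraries. They were 36 to 61 for the difference of ET1 effects and 32 to 57 for any difference. DESeq2 called 41 for ET1 minus vehicle, 41 for sacubitrilat minus vehicle, 63 for any difference, 5 for ET1 minus sacubitrilat, 16 in its 6 libraries and 10 for combined minus vehicle. For combined minus vehicle, RLE scaling, a mean of at least 50 counts, mitochondrial genes left out and added pseudogene counts each gave 1, limma-voom 2 and leaving out both libraries under 100000 counts 8. For ET1 minus sacubitrilat in 12 libraries, member-sum scaling and a mean of at least 50 counts gave 1, no filter, limma-voom and thinning 0, and leaving out both libraries under 100000 counts 13. A fit of the compared groups alone gave 30, and for this comparison it is the same fit as that of 6 libraries. In 6 libraries, member-sum scaling gave 10, total scaling 62 and thinning 5. Thinning gave 14 for ET1 minus vehicle. The cause of these moves was not tested. Shares of all genes called are not given for most alternative settings, including the replicate block below. Those counts show how calls depend on processing and are not results about the members.

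With the replicate block, 20 members were called for ET1 minus vehicle, 31 for combined minus ET1, 20 for sacubitrilat minus vehicle, 37 for combined minus sacubitrilat and 0 for combined minus vehicle. The block gave 1 for ET1 minus sacubitrilat, 28 in its 6 libraries, 38 for the difference of ET1 effects and 33 for any difference. Same-numbered libraries did not deviate together, and the block changed the call of no named member other than the 7 whose value with it stands in the text. For the difference of ET1 effects the split was 29 positive against 15 negative with a mean of at least 50 counts, and 9 against 50 with no filter.

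Of named members called at first, 77 values gave 1714 repeats with the same call, 131 with the call lost and 2 of opposite sign. Those 2 were RPS27L (-0.35) and RPL22L1 (0.70) for ET1 minus sacubitrilat with exchanged labels. RPL3, not called in 6 libraries, gave -0.0615 with total scaling and -0.10 after thinning. In the low-total libraries 3 counts equal up to 37.1 CPM, which limits members of low level such as RPL10L and RPL22L1.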
